A study of Mus musculus with 4 samples.

Results

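The comparison was of long-term hematopoietic stem cells (LT-HSCs) carrying the Flt3-ITD allele with those of the MxCRE control, here called Mx. The cells came from 2 of the 4 samples of the series, and 4912 of its 10608 cells belonged to them, 2519 from Mx and 2393 from Flt3-ITD. A barcode was taken as a cell with at least 1000 UMIs (counted transcripts), at least 500 genes and at most 10.0% of UMIs from mitochondrial genes. Both groups were C57BL/6 mice aged 8 to 11 weeks. Their LT-HSCs had been sorted by flow cytometry from crushed limb bones and sternum and put at once on the 10x Genomics 3′ v2 platform. The labels give the control's genotype as MxCRE, the interferon-inducible Cre driver, and the mutant's as Flt3-ITD. They do not say whether the mutant also carried Cre, whether an inducer was given, or how many animals went into a library. Each genotype had 1 library, so genotype and library cannot be told apart and no test between genotypes was made. The libraries of NPMc+ (the cytoplasmic nucleophosmin mutant) and NPMc+/Flt3-ITD were used only to set values beside those of named genes.

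FLT3 is a receptor tyrosine kinase of early progenitors that dimerises on binding its ligand and signals through STAT5, the RAS to MAP kinase cascade and PI3 kinase. An internal tandem duplication (ITD) lengthens the juxtamembrane part of the receptor, relieves its autoinhibition, and gives signalling without ligand; it is a common lesion of acute myeloid leukaemia. LT-HSCs are mostly quiescent cells that keep all blood lineages, and in the mouse they lack the surface protein CD48 and carry little Flt3.

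The kept Mx cells held 20943905 UMIs with a median of 8094 per cell, and the kept Flt3-ITD cells 21982925 with a median of 8661. CPM is the UMIs of a gene per 1000000 UMIs, summed over a library's cells. Shares of cells were taken after each cell had been thinned at random to 3000 UMIs, which left 2311 Mx and 2175 Flt3-ITD cells. Ranges in brackets after a share or a fold are exact 95% intervals and cover counting error only, not variation between animals. Over 6546 genes with at least 20 CPM in either library, the median log2 ratio of Flt3-ITD over Mx was -0.06, and it was 0.08 after TMM scaling, which moves every ratio up by the difference of those medians. In Flt3-ITD 156 genes (2.38% of those compared) stood 2-fold or more above Mx and 114 (1.74%) as far below it. Of the 114 lower ones, 13 were retrocopies of ribosomal protein genes, whose counts are uncertain and are described further below. After TMM scaling the counts of higher and lower genes were 185 and 77. In thinned cells, 125 genes (1.91%) were detected in at least 10 percentage points more cells of Flt3-ITD and 108 (1.65%) in as many fewer. Both criteria were met by 79 genes on the higher side and 46 on the lower side. At 1.5-fold, 289 genes (4.41%) stood above Mx and 419 (6.4%) below it. The counts of list members given below are to be set against these shares.

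Both libraries held LT-HSC markers, and in Flt3-ITD those of the next progenitor stage summed higher than them. The 15 LT-HSC markers summed to 2215 CPM in Mx and 1238 in Flt3-ITD, none was at 0, and at least 3 UMIs of them were found in 91.0% of thinned Mx cells and 68.9% of thinned Flt3-ITD cells. The 10 markers of multipotent or lymphoid-primed progenitors summed to 1129 CPM in Mx and 2017 in Flt3-ITD, none at 0, with at least 3 UMIs in 55.1% and 80.1% of thinned cells. Of the 7 measured, 2 (Cd48 and Plac8) were at least 1.5-fold higher and 0 as far lower. Some lists of other lineages were high in both libraries, each through a few genes. The 10 erythroid markers, at 1615 and 1530.5 CPM, came mostly from Car2, at 1438 and 1387 CPM. The 11 monocyte, macrophage or dendritic markers found, at 938 and 882 CPM, came mostly from Cst3 (410.2 and 391) and Lyz2 (375 and 365), and 3 or more of their UMIs were in 53.4% and 49.0% of thinned cells. The 5 granulocyte or monocyte progenitor markers, at 535 and 664 CPM, came mostly from Prtn3 (518 and 489). The other lists were lower. The 13 T or NK markers summed to 199 CPM in Mx and 351 in Flt3-ITD with none at 0, and the 7 mast or basophil markers found to 19.7 and 52.3, with 1 at 0 in Mx. The 12 B or plasma cell markers stood at 50.3 and 86.7 CPM, with 3 and 2 at 0. The 10 neutrophil markers stood at 186 and 73.6, with 1 at 0 in each. Megakaryocyte, endothelial and stromal markers summed to 313, 211 and 11.0 CPM in Mx and 289, 192 and 7.05 in Flt3-ITD. Leaving out every cell with 3 or more UMIs of defining markers of erythroid, neutrophil, granulocyte or monocyte progenitor, B, T or NK, or mast lineages kept 2429 Mx and 2132 Flt3-ITD cells and gave 152 genes higher and 106 lower by 2-fold. A broader filter, on the full marker lists of the same 6 lineages, left 127 Mx and 161 Flt3-ITD cells, in which the log2 ratios of Kit (0.0828), Spred1 (0.21) and mt-Co2 (0.0345) turned from those given below. The part of the T or NK and mast or basophil markers in single results was not tested.

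Most genes of the receptor and its signalling chain lay within 1.5-fold. Among the 35 measured FLT3 pathway components, 2 stood 1.5-fold or more above Mx and 3 as far below it, against 4.41% and 6.4% of all genes compared. Flt3 itself (mm10 chr5:147330741-147400489, minus strand) stood at 29.9 CPM in Mx against 31.8 in Flt3-ITD, and at 12.8 CPM for NPMc+ and 70.9 for NPMc+/Flt3-ITD. The Flt3-ITD to Mx ratio was 1.06 (0.954 to 1.19), and it was detected in 8.96% of Mx and 9.56% of Flt3-ITD cells. The tables count the locus as a whole and do not tell the mutant allele from the normal one. Stat5b, a STAT5 gene, was at 33.5 CPM in Mx against 33.7 in Flt3-ITD (ratio 1.01, 0.906 to 1.12), and its paralog Stat5a was 1.17-fold lower (1.09 to 1.26). Of the RAS and MAP kinase steps, Hras, Map2k1 and Mapk3 all lay within 1.07-fold of Mx.

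Pathway components past 1.5-fold included other receptors and a PI3 kinase subunit. Csf2rb, the common beta chain of the IL-3 and GM-CSF receptors, was 2.28-fold higher (1.95 to 2.66) at 11.2 CPM in Mx against 25.6 in Flt3-ITD. Pik3cd, the PI3 kinase catalytic subunit of blood cells, was 1.501-fold higher (1.37 to 1.65). Kit, the stem cell factor receptor, was 1.76-fold lower (1.67 to 1.86), at 175 CPM in Mx against 99.3 in Flt3-ITD. It was detected in 40.4% of Mx and 25.2% of Flt3-ITD cells. Kit also lay below Mx in the other libraries, at 107 CPM for NPMc+ and 106 for NPMc+/Flt3-ITD. Among 22 measured cytokine receptors, 1 was higher and 5 lower by 1.5-fold, the lowest ratio being that of Il21r (2.21-fold lower, 2.03 to 2.40).

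**Figure D1:**
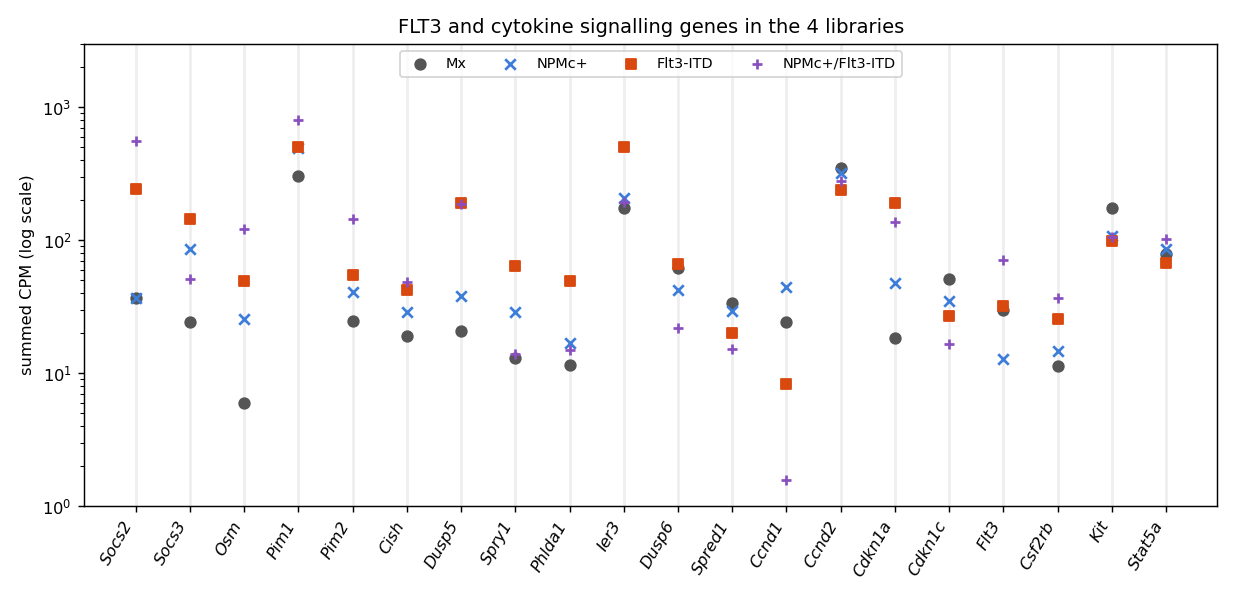
Summed CPM (log axis) of 20 FLT3 and cytokine signalling genes in the 4 libraries, 1 point per library, with no error bar because each genotype had 1 library. Socs2, Dusp5, Pim2 and Osm are high in both libraries with Flt3-ITD, Spry1 and Phlda1 are highest in Flt3-ITD, and Flt3 is near-level in Mx and Flt3-ITD at 29.9 and 31.8 CPM.

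In the list of STAT5 targets and cytokine feedback genes, about as many members were higher in Flt3-ITD as were not. This list had 8 of 17 measured members past 1.5-fold on the higher side and 1 on the lower side, with a median log2 ratio of 0.48. Of its feedback inhibitors, those past 1.5-fold were Socs2 (6.63-fold higher, 6.15 to 7.16), Socs3 (5.99-fold higher, 5.45 to 6.60) and Cish (2.19-fold higher, 1.94 to 2.47), all of which bind activated cytokine receptors. Socs4 and Socs6 of the same family were 1.33-fold lower (1.15 to 1.53) and 1.29-fold lower (1.12 to 1.48). Socs2 was detected in 10.0% (8.84 to 11.3) of Mx cells and 48.6% (46.4 to 50.7) of Flt3-ITD cells, and Socs3 in 6.66% of Mx and 32.1% of Flt3-ITD cells. The 2 other libraries parted on these genes: Socs2 stood at 36.9 CPM for NPMc+ and 563 for NPMc+/Flt3-ITD, and Socs3 at 85.6 CPM for NPMc+ and 51.5 for NPMc+/Flt3-ITD. In erythroid-like cells, described with the immediate-early genes, the share with Socs2 was 2.94% (0.0744 to 15.3) in Mx and 27.0% (13.8 to 44.1) in Flt3-ITD. Counted per cell over Cish, Socs1, Socs2 and Socs3, 77.0% of Mx cells had none of 3000 UMIs and 31.8% of Flt3-ITD cells had none, while 3 or more were found in 0.736% (0.429 to 1.18) and 16.3% (14.8 to 17.9). At least 1 of these inhibitors was thus seen in most Flt3-ITD cells and in a minority of Mx cells.

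Among survival genes the kinases and Mcl1 were higher and Bcl2 was not. The survival kinases Pim1 and Pim2 were 1.66-fold (1.61 to 1.71) and 2.22-fold (2.0 to 2.46) higher, and Pim3 1.40-fold (1.27 to 1.53). The anti-apoptotic Mcl1 was 2.52-fold higher (2.41 to 2.64) and was detected in 31.7% of Mx and 61.2% of Flt3-ITD cells, whereas Bcl2 was 1.41-fold lower (1.31 to 1.52) and Bcl2l1 differed 1.10-fold (0.976 to 1.25). Osm, which encodes the cytokine oncostatin M, was 8.37-fold higher (6.94 to 10.2), but 33.1% of its Mx UMIs and 25.8% of its Flt3-ITD UMIs lay in 1% of cells. Cebpa, the granulocyte lineage factor, was 2.71-fold higher (2.25 to 3.27) at 7.54 CPM in Mx against 20.4 in Flt3-ITD. On the other side, Ccnd2 was 1.47-fold lower (1.42 to 1.52), and Fgl2 was 1.58-fold lower (1.36 to 1.84).

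Of the 8 STAT5 list members at least 1.5-fold higher, 6 had RefSeq promoter windows (read over the 250 bases upstream of the start, GRCm38.p6), 7 in all; those of Socs2 and Osm were not analysed here. Of these windows 1 held the STAT element TTCNNNGAA on either strand, which reads the same on both, against 7.02% of 32851 windows of all genes. That window belongs to Socs3 and is shown with the element in capitals (chr11:117969367-117969616, minus strand), 154 to 146 bases before the start.
Socs3: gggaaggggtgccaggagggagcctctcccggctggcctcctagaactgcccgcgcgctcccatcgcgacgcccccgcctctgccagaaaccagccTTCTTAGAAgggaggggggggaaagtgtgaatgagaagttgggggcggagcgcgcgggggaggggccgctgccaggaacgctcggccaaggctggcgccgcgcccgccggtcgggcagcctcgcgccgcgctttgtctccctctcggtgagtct

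Feedback on the MAP kinase cascade was uneven. This list had 5 of 9 measured members past 1.5-fold on the higher side and 2 on the lower side, with a median log2 ratio of 0.69. Dusp5, a nuclear ERK phosphatase, was 9.25-fold higher (8.38 to 10.2), at 20.7 CPM in Mx against 191 in Flt3-ITD, and was detected in 7.10% (6.08 to 8.22) of Mx cells and 38.6% (36.6 to 40.7) of Flt3-ITD cells. Spry1, which blocks RAS activation downstream of receptors, was 4.94-fold higher (4.34 to 5.64), Phlda1 4.29-fold higher (3.72 to 4.95) and Ier3 2.88-fold higher (2.78 to 2.99). Dusp6, the cytoplasmic ERK phosphatase that is a common readout of ERK output, was 1.08-fold higher (1.01 to 1.17), Dusp2 had a ratio near 1 (1.02-fold lower, 0.987 to 1.06), and Spred1 was 1.67-fold lower (1.48 to 1.89). Ccnd1, the D cyclin downstream of ERK, was 2.94-fold lower (2.48 to 3.50) at 24.4 CPM in Mx against 8.28 in Flt3-ITD, with 5.13-fold in male cells and 1.57-fold in female cells. In NPMc+/Flt3-ITD, Dusp5 stood at 188 CPM, close to the Flt3-ITD value, while Spry1 at 13.9 and Phlda1 at 14.9 stood near the Mx level.

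Immediate-early transcription factors, which respond within minutes to growth factors or stress, were higher in most members. The AP-1 and ATF list had 9 of 13 measured members past 1.5-fold on the higher side and 0 on the lower side, with a median log2 ratio of 1.55, and the KLF, NR4A and Egr list had 14 of 16 measured members past 1.5-fold on the higher side and 1 on the lower side, with a median log2 ratio of 1.55. Nr4a1, an orphan nuclear receptor (mm10 chr15:101254269-101274795, plus strand), was detected in 12.1% (10.8 to 13.5) of Mx cells and 78.3% (76.5 to 80.0) of Flt3-ITD cells, and in 36.7% in NPMc+ and 22.9% in NPMc+/Flt3-ITD. Klf2 was detected in 20.6% (18.96 to 22.3) of Mx cells and 84.9% (83.3 to 86.4) of Flt3-ITD cells, Fosb in 36.8% of Mx and 86.7% of Flt3-ITD cells and Btg2, an antiproliferative factor, in 16.2% of Mx and 67.0% of Flt3-ITD cells. The ratio was smaller for the abundant members: Fos was 3.54-fold higher (3.49 to 3.59), Jun 2.93-fold higher (2.89 to 2.97), Junb 3.69-fold higher (3.61 to 3.77) and Jund 3.93-fold higher (3.86 to 4.01). Klf3 was the member on the other side, at 29.1 CPM in Mx against 19.01 in Flt3-ITD (1.53-fold lower, 1.35 to 1.74), and Batf and Creb1 were 1.33-fold (1.21 to 1.46) and 1.23-fold (1.09 to 1.39) lower. For Nr4a1 the ratio was 13.4-fold in male cells and 17.6-fold in female cells, and for Klf2 16.4-fold in male cells and 14.98-fold in female cells.

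The difference was seen in most cells. Over the genes of both lists, the median cell held 17 UMIs of 3000 in Mx (10th to 90th percentile 8 to 34) and 65 in Flt3-ITD (32 to 112). Above the 95th percentile of Mx, which was 40 UMIs, were 81.8% of Flt3-ITD cells, and 98.2% lay above the Mx median. The median was 38 in NPMc+ and 42 in NPMc+/Flt3-ITD, so every mutant library stood above Mx and Flt3-ITD highest. Immediate-early genes are also known to respond to cell preparation, which cannot be told apart from genotype with 1 library each. In erythroid-like cells of the same libraries (34 Mx and 37 Flt3-ITD cells with 3 or more UMIs of Klf1, Car1, Ermap and Epor), Klf2 was detected in 5.88% (0.720 to 19.7) and 67.6% (50.2 to 82.0) and Nr4a1 in 14.7% (4.95 to 31.1) and 56.8% (39.5 to 72.9). Their median depths were 14852 and 13343 UMIs before thinning, against 8344 and 9042 over all thinned cells. The share with Cdkn1a was 0% (0 to 10.3) in Mx and 27.0% (13.8 to 44.1) in Flt3-ITD. These 3 genes were thus detected more often in Flt3-ITD cells of another lineage as well. Within Flt3-ITD, cells with and without a Socs2 UMI had Nr4a1 UMIs in 78.6% (76.0 to 81.0) and 77.9% (75.4 to 80.3), shares whose intervals overlap. In the 1999 Mx and 373 Flt3-ITD thinned cells with no UMI of Nr4a1 or Atf3, the log2 ratio was 2.76 for Socs2, 3.0 for Cd48 and -3.26 for Cd74, against 2.73, 2.78 and -2.65 in all cells. Such a filter does not take out the other immediate-early genes. Without an Nr4a1 UMI, 82.9% (79.2 to 86.2) of Flt3-ITD cells had Klf2 and 60.7% (56.1 to 65.1) Btg2, against 19.7% and 16.4% of Mx cells. The ratios are thus not those of cells free of immediate-early RNA.

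**Figure D2:**
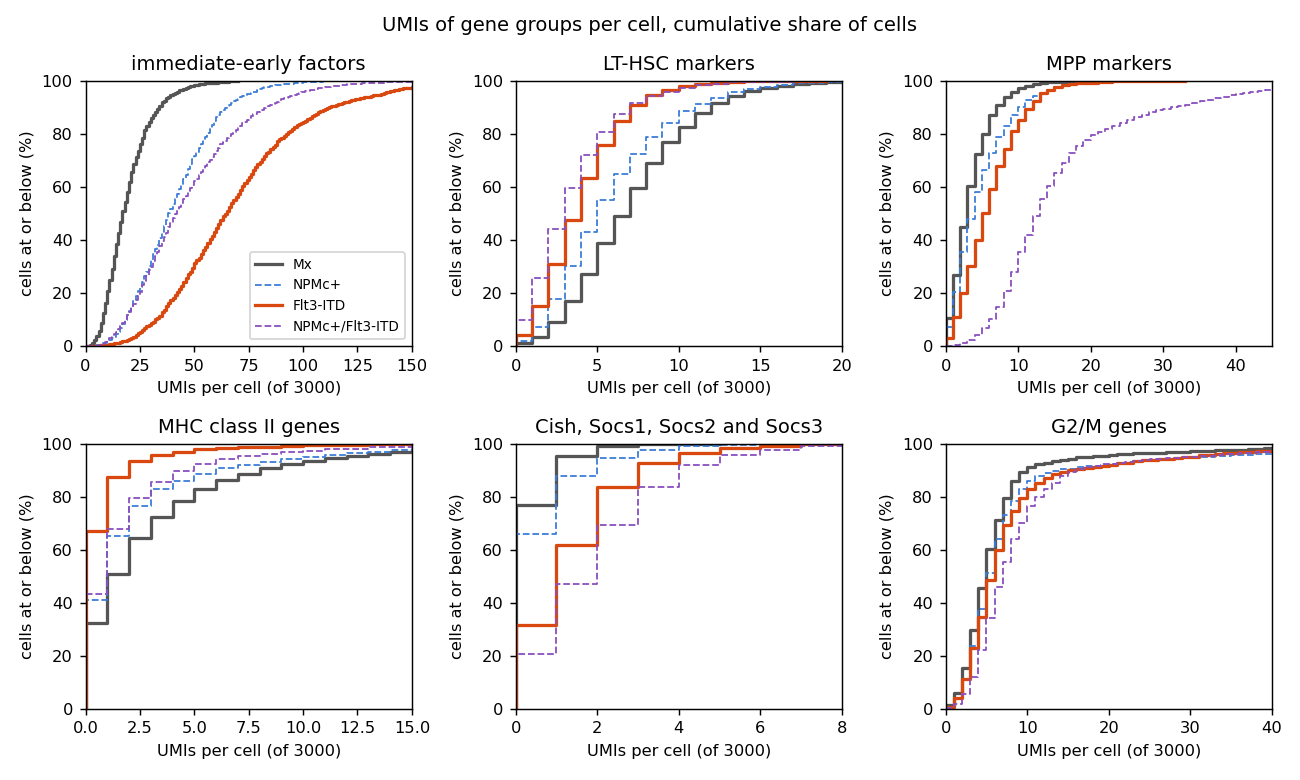
Cumulative share of cells (y, %) against the UMIs of a gene group per cell thinned to 3000 UMIs (x), for 6 groups and the 4 libraries (2311 cells of Mx, 2175 of Flt3-ITD, 2250 of NPMc+ and 2991 of NPMc+/Flt3-ITD). The Flt3-ITD line lies right of Mx for immediate-early factors over its whole length, at medians of 65 and 17 UMIs, and left of it for LT-HSC markers and MHC class II genes.

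Of the 23 immediate-early members at least 1.5-fold higher, 19 had RefSeq promoter windows, 21 in all. The 5-base core of the cAMP response element, TGACG on either strand, was found in 14 of them (66.7%), against 17.8% of all 32851 windows, and the full element TGACGTCA, which contains the core, in 2 (9.52%) against 1.55%. The CArG box of serum response factor was found in none of the 21 and in 1.47% of all windows. Egr1, which was 2.69-fold higher, was among the members without a window. Sequence outside the windows was not searched, so whether these genes have a CArG box elsewhere was not tested. The core was added to the search after the full element had been counted. List members short of 1.5-fold were not searched, so these shares are not shown to be particular to the higher ones. The windows of Nr4a1, which held the core 4 times, and Btg2, the higher of the 2 members with the full element, are shown with the matches in capitals. The core of Nr4a1 (chr15:101266596-101266845, plus strand) begins 233, 213, 69 and 40 bases before the start, each time on the other strand (CGTCA as printed), and the element of Btg2 (chr1:134079156-134079405, minus strand) lies 166 to 159 bases before it.
Nr4a1: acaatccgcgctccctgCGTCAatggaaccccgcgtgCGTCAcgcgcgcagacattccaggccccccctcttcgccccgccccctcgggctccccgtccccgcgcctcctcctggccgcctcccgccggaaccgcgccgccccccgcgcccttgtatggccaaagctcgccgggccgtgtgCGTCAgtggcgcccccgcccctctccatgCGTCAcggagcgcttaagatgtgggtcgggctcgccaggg
Btg2: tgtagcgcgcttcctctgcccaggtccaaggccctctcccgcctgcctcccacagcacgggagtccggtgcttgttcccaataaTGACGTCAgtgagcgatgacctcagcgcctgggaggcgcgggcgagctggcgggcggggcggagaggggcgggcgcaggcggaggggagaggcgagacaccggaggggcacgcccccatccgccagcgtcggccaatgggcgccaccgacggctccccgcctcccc

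Rgs1, Rgs2, Skil, Bambi and Tnfaip3, which restrain G protein, TGF-beta or NF-kB signals, were higher too. In the list of RGS and G protein genes, 4 of 24 members measured stood 1.5-fold or more above Mx and 1 below it, at a median log2 ratio of 0.03. Rgs2 and Rgs1, which end G protein signals, were 5.25-fold higher (5.07 to 5.44) and 3.51-fold higher (3.42 to 3.59). Rgs2 was detected in 35.4% of Mx and 81.6% of Flt3-ITD cells, and Rgs1 in 59.2% of Mx and 89.0% of Flt3-ITD cells. The phosphodiesterase Pde4b, which breaks down cAMP, was 2.63-fold higher (2.49 to 2.79) while the G protein subunit Gng11 was 2.27-fold lower (2.14 to 2.41). Of the mRNA decay factors, 3 of 19 members measured stood 1.5-fold or more above Mx and 2 below it, at a median log2 ratio of -0.09, against 4.41% and 6.4% of all genes; the higher ones were Zfp36 (3.07-fold), Zc3h12a (2.76-fold) and Pnrc1 (1.70-fold), and the deadenylase subunits Cnot2, Cnot6 and Cnot7 lay within 1.03-fold of Mx. In the TGF-beta feedback list, 5 of 12 members measured stood 1.5-fold or more above Mx and 2 below it, at a median log2 ratio of 0.49. Skil and Bambi, which restrain TGF-beta signalling, were 3.06-fold (2.81 to 3.33) and 3.62-fold (3.22 to 4.08) higher. Skil lay at 23.2 CPM in NPMc+/Flt3-ITD, below its Mx level of 33.5. In the NF-kB list, 10 of 21 members measured stood 1.5-fold or more above Mx and 1 below it, at a median log2 ratio of 0.55. The inhibitor Tnfaip3 was 9.02-fold higher (7.90 to 10.3), at 11.7 CPM in Mx against 105 in Flt3-ITD, and stood at 35.4 CPM for NPMc+ and 61.7 for NPMc+/Flt3-ITD. Nfkb1, which encodes a subunit of the factor itself, differed 1.002-fold (0.942 to 1.06).

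**Figure D3:**
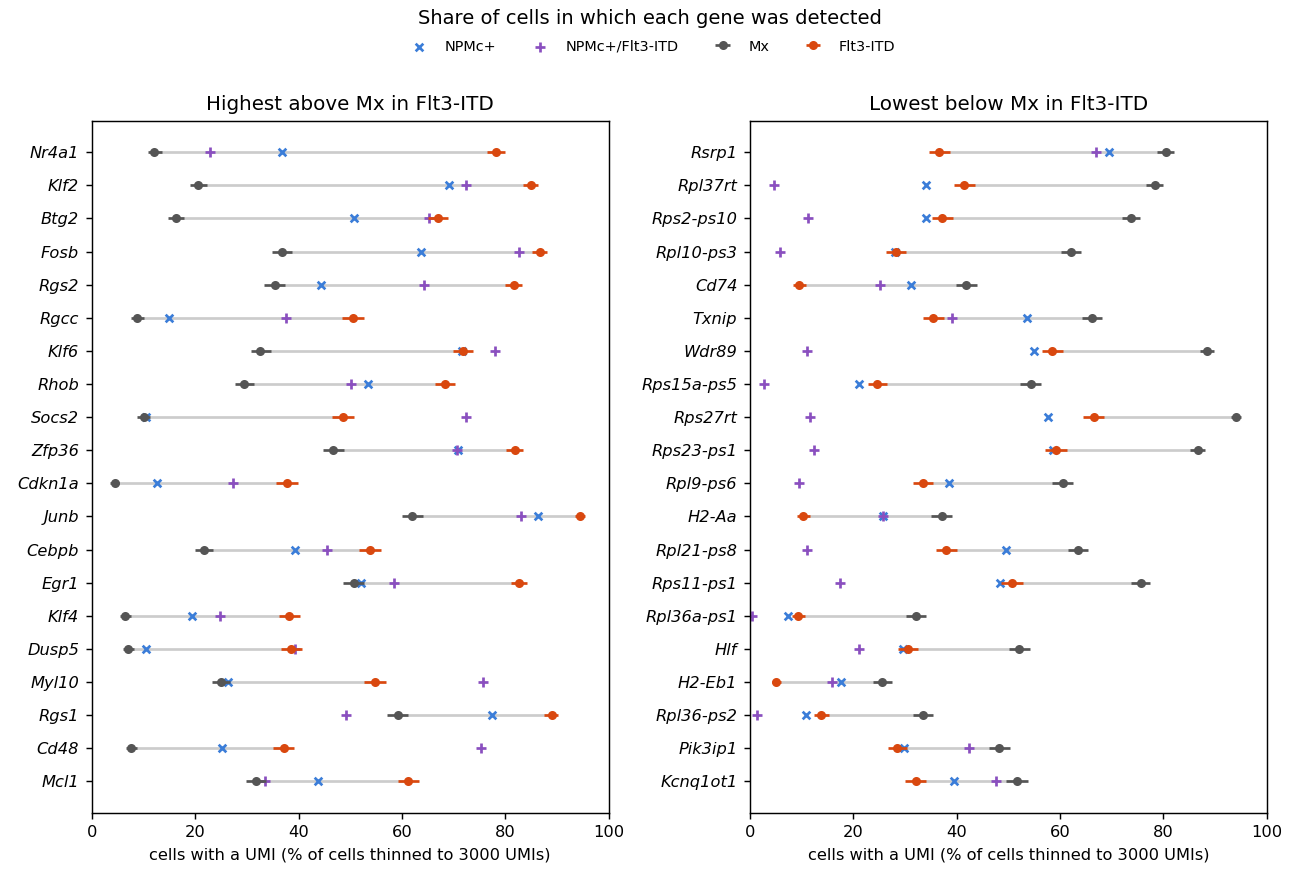
Share of thinned cells with a UMI (x, %) for the 20 genes whose share was highest above Mx in Flt3-ITD and the 20 whose share was lowest below it (clone names left out), with exact 95% intervals for those 2 libraries and the other 2 libraries as crosses. Nr4a1 heads the first set at 12.1% of Mx and 78.3% of Flt3-ITD cells, and the second holds MHC class II genes, Txnip, Hlf and retrocopies of ribosomal protein genes.

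Some mitotic genes were higher in Flt3-ITD, and few S phase genes were. The G2/M list had 13 of 32 measured members past 1.5-fold on the higher side and 0 on the lower side, with a median log2 ratio of 0.49, and the G1/S list had 2 of 42 measured members past 1.5-fold on the higher side and 0 on the lower side, with a median log2 ratio of 0.27. Of all genes compared 4.41% stood as far above Mx, a share near that of the G1/S list (4.76%). Ube2c, the ubiquitin-conjugating enzyme of mitotic exit, was 2.17-fold higher (1.93 to 2.44), Cks2 1.91-fold higher (1.82 to 1.996), Nusap1 1.88-fold higher (1.66 to 2.14) and Birc5 1.82-fold higher (1.66 to 1.997). Few cells carried them: Birc5 was detected in 4.15% (3.38 to 5.05) of Mx cells and 7.95% (6.85 to 9.17) of Flt3-ITD cells, and Mki67, the proliferation marker, in 3.98% of Mx and 5.47% of Flt3-ITD cells (1.13-fold higher, 1.01 to 1.26). Top2a differed by 1.05-fold (0.981 to 1.12). The 1% of cells richest in Ube2c held 71.3% of its Mx UMIs and 49.9% of its Flt3-ITD UMIs. Over the G2/M list, the median cell held 5 UMIs in Mx and 6 in Flt3-ITD, and the 95th percentile was 17 in Mx, 29.3 in Flt3-ITD, 31.6 in NPMc+ and 30.0 in NPMc+/Flt3-ITD. The upper tail was thus longer in all 3 mutant libraries than in Mx. The median log2 ratio of the G2/M list was 0.71 in male cells and 0.31 in female cells, and that of the G1/S list 0.27 in male cells and 0.08 in female cells. For DNA replication, Rrm2 was 1.72-fold higher (1.56 to 1.89) and Cdc45 1.58-fold higher (1.37 to 1.83), while the polymerase subunit Pold3 was 1.03-fold lower (0.928 to 1.14).

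Cell cycle brakes and drivers lay on both sides. Cdkn1a, which encodes the CDK inhibitor p21, was detected in 4.41% (3.61 to 5.33) of Mx cells and 37.7% (35.7 to 39.8) of Flt3-ITD cells, whereas Cdkn1c, which encodes p57 and marks dormant stem cells, was 1.90-fold lower (1.72 to 2.11), with 2.47-fold in male cells and 1.28-fold in female cells. Cdkn1b was 1.37-fold lower (1.24 to 1.499) and Rbl2 1.40-fold lower (1.24 to 1.58). Among D cyclins and the MYC network, 0 of 13 were higher and 3 lower by 1.5-fold: Ccnd1, Mycn (2.51-fold lower, 2.33 to 2.697) and Mga (1.53-fold lower, 1.39 to 1.69). Mycn was detected in 25.2% of Mx and 11.1% of Flt3-ITD cells at 120.5 CPM in Mx against 48.0 in Flt3-ITD. It stood at 126 CPM in NPMc+, near the Mx level, and at 290.1 in NPMc+/Flt3-ITD, above it. Myc differed 1.10-fold (1.04 to 1.16) and Ccnd3 1.06-fold (1.01 to 1.11). Cdk6, the main partner of D cyclins in blood cells, was 1.25-fold higher (1.21 to 1.30). Among 21 histone genes, 9 were higher and 1 lower. The linker histone Hist1h1c was 3.40-fold higher (3.24 to 3.57) and was detected in 20.4% of Mx and 47.9% of Flt3-ITD cells, Hist1h2bc was 3.08-fold higher (2.94 to 3.22), and H3f3b, a replication-independent H3.3 gene, was 2.13-fold higher (2.11 to 2.15). The replication-dependent Hist1h1b and Hist1h1e lay within 1.01-fold of Mx. Histone genes share sequence and many lack a poly(A) tail, so their counts in poly(A) libraries are uncertain.

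Many genes of stem cell identity were lower, and Cd48 and some genes of the next progenitor stage higher. Of the 11 LT-HSC markers that were measured, 10 were at least 1.5-fold lower, and in the longer list of transcription factors 4 of 40 members measured stood 1.5-fold or more above Mx and 10 below it, at a median log2 ratio of -0.34. In the list of surface proteins 4 of 40 members measured stood 1.5-fold or more above Mx and 10 below it, at a median log2 ratio of -0.26. Hlf, a PAR-bZIP factor of stem cells (mm10 chr11:90336536-90390895, minus strand), was 2.07-fold lower (1.97 to 2.16), at 264 CPM in Mx against 128 in Flt3-ITD, and was detected in 52.1% (50.1 to 54.2) of Mx cells and 30.6% (28.6 to 32.6) of Flt3-ITD cells. Mecom was 2.07-fold lower (1.94 to 2.21), Mllt3 2.50-fold lower (2.33 to 2.68), Meis1 1.64-fold lower (1.58 to 1.70) and Bcl11a 1.67-fold lower (1.59 to 1.76). All 5 of these factors lay below Mx in NPMc+ and NPMc+/Flt3-ITD, with Hlf at 115 CPM for NPMc+ and 90.6 for NPMc+/Flt3-ITD and Mllt3 at 117 CPM for NPMc+ and 23.4 for NPMc+/Flt3-ITD. Hmga2, a chromatin protein of fetal stem cells, was 2.52-fold higher (2.20 to 2.89) and Elf1, an ETS factor, 1.81-fold higher (1.75 to 1.88), while Gata2 and Runx1 differed 1.14-fold (1.10 to 1.19) and 1.35-fold (1.28 to 1.43) upward. On the surface, Ly6a, which encodes SCA-1, was 1.86-fold lower (1.75 to 1.96), Cd82 1.76-fold lower (1.60 to 1.93) and Slamf1, which encodes CD150, 1.63-fold lower (1.42 to 1.87). Cd34 was 1.41-fold higher (1.36 to 1.46) and Ifitm1 1.75-fold higher (1.73 to 1.78).

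The per-cell sums of these markers differed in the same direction. The median cell held 7 UMIs of the LT-HSC markers in Mx and 4 in Flt3-ITD, and 84.9% of Flt3-ITD cells lay below the Mx median against 49.2% of Mx cells. For the markers of multipotent progenitors (MPPs), the first descendants of stem cells, the medians were 3 and 5. Of those markers that were measured, only Cd48 and Plac8 passed 1.5-fold. The MPP and lymphoid priming list had 5 of 20 measured members past 1.5-fold on the higher side and 0 on the lower side, with a median log2 ratio of 0.15. Its higher members were Cd48, Ctla2a (2.76-fold higher, 2.71 to 2.81), Tyrobp (2.39-fold higher, 2.13 to 2.67), Plac8 (2.25-fold higher, 2.20 to 2.30) and Nkg7 (2.01-fold higher, 1.92 to 2.10). The lymphoid factors and receptors of the list, Ikzf1, Mef2c and Cd53, differed by less: 1.005-fold, 1.04-fold and 1.001-fold. Cd48, whose protein is absent from LT-HSCs as they are usually defined, was detected in 7.62% (6.57 to 8.77) of Mx cells and 37.1% (35.1 to 39.2) of Flt3-ITD cells. In erythroid-like cells its share was 20.6% (8.70 to 37.9) in Mx and 37.8% (22.5 to 55.2) in Flt3-ITD, intervals that overlap. In Mx, cells with a Cd48 UMI had Hlf in 30.7% (23.96 to 38.1) and those without in 53.9% (51.8 to 56.0). In Flt3-ITD the shares with Hlf were 29.1% (25.97 to 32.3) and 31.5% (29.0 to 33.99), intervals that overlap. Those with Procr overlapped as well, at 11.8% (9.62 to 14.2) and 15.6% (13.7 to 17.6). Mecom was less frequent in Flt3-ITD cells with a Cd48 UMI, at 13.1% (10.9 to 15.6) against 20.9% (18.8 to 23.2) without. The mean sum of LT-HSC markers was 3.39 UMIs with Cd48 and 4.36 without in Flt3-ITD, and 5.02 and 7.19 in Mx. Socs2 was detected in 54.8% (51.3 to 58.3) of Flt3-ITD cells with a Cd48 UMI and 44.8% (42.2 to 47.5) of those without; in Mx these shares were 5.11% (2.36 to 9.49) and 10.4% (9.18 to 11.8). Procr, which encodes the stem cell protein EPCR, was found with Socs2 more often in both libraries, in 15.7% (12.9 to 18.8) of Procr-positive and 8.00% (6.76 to 9.40) of Procr-negative cells of Mx, and 59.4% (53.7 to 64.9) and 46.8% (44.5 to 49.1) of Flt3-ITD.

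Primary granule genes of the myeloid lineage were higher, in a minority of cells. The myeloid list had 13 of 22 measured members past 1.5-fold on the higher side and 0 on the lower side, with a median log2 ratio of 1.02; after cells with defining markers of other lineages were left out its median was 0.52. Mpo, which encodes myeloperoxidase, was 8.80-fold higher (7.56 to 10.3), at 8.98 CPM in Mx against 79.0 in Flt3-ITD, and was detected in 1.95% (1.42 to 2.60) of Mx cells and 10.7% (9.40 to 12.04) of Flt3-ITD cells. A small number of cells held much of it: 51.1% of its Mx UMIs and 47.1% of its Flt3-ITD UMIs came from the richest 1%. Ctsg, a granule protease, was detected in 0.130% (0.0268 to 0.379) of Mx cells and 5.66% (4.72 to 6.71) of Flt3-ITD cells, and stood at 0.668 CPM in Mx against 42.4 in Flt3-ITD, with 174 for NPMc+/Flt3-ITD. Without cells holding defining markers of other lineages the log2 ratio was 4.46 for Ctsg (5.99 in all cells), 2.17 for Mpo (3.14) and 2.93 for Elane (5.70). The full granulocyte or monocyte progenitor marker list holds Mpo, Elane and Ctsg themselves. A filter on such markers can lower these ratios and the list median by its choice of cells, so the falls are no independent check. Elane was detected in 0.130% of Mx and 1.10% of Flt3-ITD cells, with 92.3% of its Flt3-ITD UMIs in the richest 1% of cells. No UMI of Elane, Ctsg or Mpo was found in 97.9% of Mx and 85.0% of Flt3-ITD thinned cells. Prtn3, a protease of the same granules that LT-HSCs of both libraries expressed, was at 518 CPM in Mx against 489 in Flt3-ITD, and Lyz2 at 375 CPM in Mx against 365 in Flt3-ITD. Megakaryocyte genes were mixed: 4 of 26 members measured stood 1.5-fold or more above Mx and 5 below it, against 4.41% and 6.4% of all genes. Their median log2 ratio was -0.29. The retinaldehyde dehydrogenase gene Aldh1a1 and the LIM protein gene Fhl1 were 2.62-fold (2.37 to 2.91) and 3.36-fold (2.81 to 4.04) lower, while Itga2b, which encodes the platelet integrin CD41, was 1.09-fold higher (1.02 to 1.16). Of 13 erythroid genes, 1 was higher and 1 lower (7.69% each), near the shares of all genes.

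Genes tied to FoxO and dormancy split: 6 of 24 members measured stood 1.5-fold or more above Mx and 4 below it, at a median log2 ratio of -0.12 (0.0264 after TMM scaling). Txnip, which slows glucose uptake, was 2.75-fold lower (2.65 to 2.86), at 459 CPM in Mx against 167 in Flt3-ITD, and was detected in 66.1% (64.1 to 68.0) of Mx cells and 35.4% (33.4 to 37.5) of Flt3-ITD cells. Pik3ip1, an inhibitor of PI3 kinase, was 2.11-fold lower (2.005 to 2.22) and was detected in 48.2% of Mx and 28.5% of Flt3-ITD cells. Of the higher members, Egr1, Nr4a2 and Klf9 are also in the immediate-early lists, and the pseudokinase gene Trib1 was 3.42-fold higher (2.96 to 3.96). Among imprinted genes, 0 of 14 members measured stood 1.5-fold or more above Mx and 5 below it, at a median log2 ratio of -0.19. Ndn, Grb10 and Cdkn1c were 2.53-fold, 2.02-fold and 1.90-fold lower, and the long noncoding Kcnq1ot1 was 1.97-fold lower (1.89 to 2.06) and found in 51.7% of Mx and 32.0% of Flt3-ITD cells. Kcnq1ot1 overlaps Kcnq1 on the other strand, and the strand setting of the counting is not given in the sources used here. Impact, H13 and Commd1 lay within 1.04-fold. For Ndn and Grb10 the ratio was 4.84-fold in male cells and 1.19-fold in female cells, and 3.20-fold in male cells and 1.17-fold in female cells.

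Most interferon-responsive genes that differed were lower. All 8 measured interferon-inducible GTPases were at least 1.5-fold lower and, of 39 other interferon-stimulated genes, 19 were lower and 1 higher, against 6.4% and 4.41% of all genes. Irgm1 was 2.31-fold lower (2.11 to 2.53), Igtp 2.11-fold lower (1.92 to 2.32), the nucleic acid sensor Zbp1 2.96-fold lower (2.46 to 3.59) and Rtp4 2.66-fold lower (2.38 to 2.99). Ifi44 was 3.33-fold lower (2.75 to 4.05), at 21.2 CPM in Mx against 6.37 in Flt3-ITD, and stood at 13 CPM for NPMc+ and 3.19 for NPMc+/Flt3-ITD. The median log2 ratio was -0.89 for the GTPases (-1.11 in male cells and -0.53 in female cells) and -0.57 for the others (-0.68 in male cells and -0.52 in female cells). The GTPases summed to 658 CPM in Mx and 307 in Flt3-ITD. Over both lists together the median cell held 19 UMIs in Mx and 18 in Flt3-ITD, and the other stimulated genes summed to 5998 and 5985 CPM, a sum to which Ifitm1 gave more in Flt3-ITD. Ifitm1, at 1319 CPM in Mx against 2310.0 in Flt3-ITD, was the member past 1.5-fold on the higher side, and Ifitm2 differed 1.04-fold (1.02 to 1.06). Ly6e was 1.06-fold lower (1.03 to 1.09) and Irf1 1.07-fold lower (1.003 to 1.15). The control carried the interferon-inducible Mx driver, and whether its animals had received an inducer is not in the labels.

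Among the 27 interferon list members at least 1.5-fold lower, 22 had 27 promoter windows. Members short of that were not searched, so the shares below cannot be told apart from those of interferon-responsive genes in general. The core of the interferon-stimulated response element, a pair of TTTC separated by 2 bases on either strand, was in 11 of them (40.7%), against 2.98% of all windows, and the STAT element TTCNNNGAA in 6 (22.2%), against 7.02%. The windows of the 2 members with the lowest ratios that held the response element are shown with their elements in capitals (GAAA pairs, since the response element is on the other strand): Tgtp2 (chr11:49064213-49064462, minus strand), whose STAT element lies 81 to 73 and response element 70 to 61 bases before the start, and Irgm1 (chr11:48871421-48871670, minus strand), with overlapping response elements 30 to 15 bases before it. Tgtp2 is nearly identical to its neighbour Tgtp1, so reads of the pair may not be told apart.
Tgtp2: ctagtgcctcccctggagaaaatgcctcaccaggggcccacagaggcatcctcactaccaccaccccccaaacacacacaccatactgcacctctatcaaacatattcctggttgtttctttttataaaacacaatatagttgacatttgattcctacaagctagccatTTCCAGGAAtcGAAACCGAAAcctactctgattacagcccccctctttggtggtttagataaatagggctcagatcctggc
Irgm1: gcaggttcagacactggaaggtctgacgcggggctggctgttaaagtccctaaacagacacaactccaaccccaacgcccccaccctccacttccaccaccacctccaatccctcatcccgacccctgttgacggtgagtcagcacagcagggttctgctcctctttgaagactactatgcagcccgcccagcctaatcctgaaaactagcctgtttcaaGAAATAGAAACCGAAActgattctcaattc

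Antigen presentation genes of MHC class II were lower as well: 1 of 10 members measured stood 1.5-fold or more above Mx and 6 below it, at a median log2 ratio of -0.90. Over Cd74, H2-Aa, H2-Ab1 and H2-Eb1, 35.7% (33.7 to 37.6) of Mx and 6.57% (5.57 to 7.70) of Flt3-ITD cells held 3 or more UMIs, with 23.6% in NPMc+ and 20.4% in NPMc+/Flt3-ITD. Flt3-ITD was thus the lowest of the 4 libraries, and NPMc+/Flt3-ITD lay near NPMc+. H2-Aa was detected in 37.1% (35.1 to 39.1) of Mx cells and 10.3% (9.10 to 11.7) of Flt3-ITD cells, and in Mx it was found in 56.5% (53.3 to 59.6) of cells with a Cd74 UMI and 23.1% (20.9 to 25.5) of those without. Cd74 was higher in Mx male than in Mx female cells, at 447 and 227 CPM, and stood at 57.7 and 74.9 in Flt3-ITD. The ratio for Cd74 was 7.75-fold in male cells and 3.03-fold in female cells. In erythroid-like cells, which should lack class II, 2 of 34 Mx and 2 of 37 Flt3-ITD cells had a Cd74 UMI, 5 and 2 an H2-Aa UMI, and 3 and 1 an H2-Eb1 UMI. The member on the higher side was H2-Ob, a chain of the H2-O complex, at 2.13-fold higher (1.82 to 2.51), while Ctss, a protease that trims the invariant chain, was 2.81-fold lower (2.35 to 3.38). For MHC class I and peptide loading, 0 of 22 members measured stood 1.5-fold or more above Mx and 2 below it, at a median log2 ratio of -0.27, with 4.41% and 6.4% of all genes as far from Mx. Tapbpl was 1.64-fold lower (1.48 to 1.81) and H2-T22 1.57-fold lower (1.49 to 1.66).

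**Figure D4:**
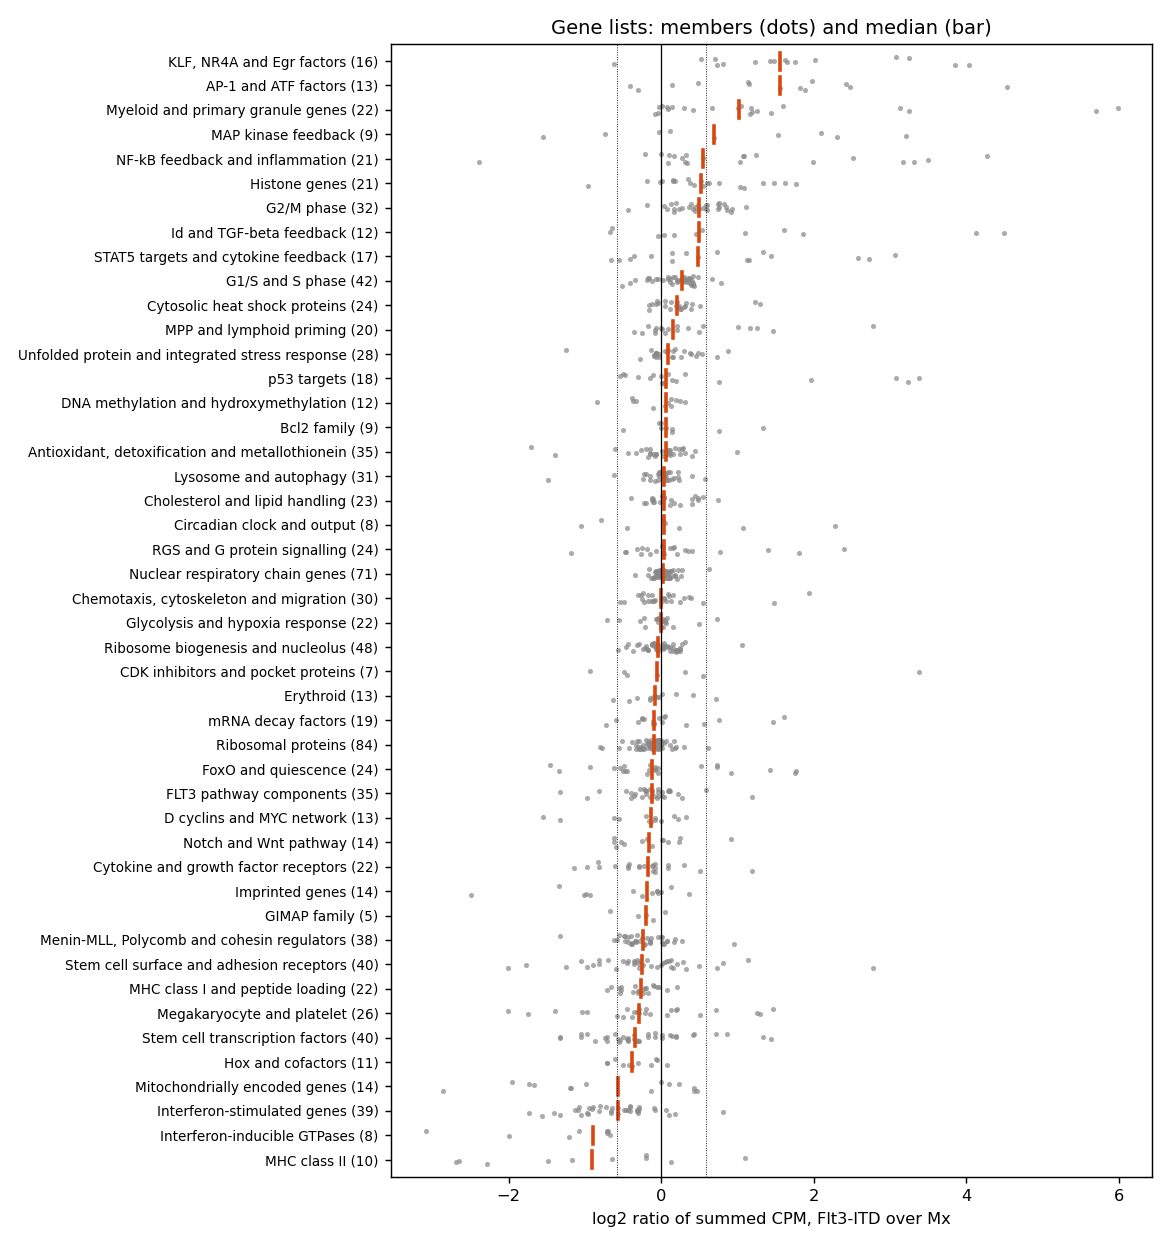
Log2 ratio of summed CPM, Flt3-ITD over Mx (x), for the measured members of 46 gene lists (y, number of members in brackets), with each member a dot, the list's median a bar and dotted lines at 1.5-fold. Immediate-early factors lie farthest right at a median of 1.55, class II genes farthest left at -0.90, and metabolic lists sit around 0.

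Few housekeeping genes differed by 1.5-fold, and few of all genes compared did (4.41% higher and 6.4% lower). The glycolysis list (4.55% each way), the lysosome list (6.45% lower) and the migration list (6.67% higher) lay near those shares. Of 71 nuclear respiratory chain genes 1 was higher and 0 lower by 1.5-fold, of 22 glycolysis genes 1 and 1, of 48 ribosome biogenesis genes 1 and 0, of 31 lysosome and autophagy genes 0 and 2, and of 30 cytoskeleton and migration genes 2 and 0. Among the exceptions were Atp5g2 (1.55-fold higher, 1.46 to 1.65), Odc1, the rate-limiting enzyme of polyamine synthesis (2.08-fold higher, 1.96 to 2.21), and on the lower side Ldhb (1.63-fold lower, 1.54 to 1.73). In the cholesterol list the synthesis genes Fdps, Hmgcs1, Sqle and Fdft1 were 1.68-fold, 1.47-fold, 1.39-fold and 1.39-fold higher, and stood higher still in NPMc+/Flt3-ITD, as Fdps did at 222 CPM against 86.2 in Flt3-ITD; 1 of 23 members passed 1.5-fold. Among heat shock genes Dnajb1 was 2.34-fold higher (2.26 to 2.42) and Hspa8 1.32-fold higher (1.30 to 1.33), and in the unfolded protein list Ppp1r15a was 1.84-fold higher (1.78 to 1.89), Ddit3 1.45-fold higher (1.32 to 1.59) and Dnajb11 1.03-fold lower (0.948 to 1.11). Gstp1, a glutathione transferase, was 1.998-fold higher (1.89 to 2.11) and Sult1a1, a sulfotransferase, 3.27-fold lower (2.78 to 3.85). Of the clock genes, Bhlhe40 and Per1 were 4.87-fold (4.25 to 5.6) and 2.10-fold (1.86 to 2.38) higher and Dbp differed 1.04-fold (0.918 to 1.18). Among chromatin regulators, Tet1 was 1.79-fold lower (1.58 to 2.03) and the histone demethylase Kdm6b 1.94-fold higher (1.81 to 2.08), while Jarid2 was 1.501-fold lower (1.32 to 1.71) and Rnf2 1.004-fold higher (0.919 to 1.10).

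Mitochondrially encoded RNAs split in opposite directions at a near equal total, which was 0.733% of UMIs in Mx and 0.758% in Flt3-ITD. Of the 14 measured, 0 were higher and 7 lower by 1.5-fold. mt-Atp6 stood at 679 CPM in Mx against 213 in Flt3-ITD (3.19-fold lower, 3.09 to 3.30), and mt-Co2, mt-Co3 and the ribosomal mt-Rnr2 were 3.88-fold, 3.34-fold and 1.98-fold lower. mt-Nd1, mt-Nd4 and mt-Cytb were 1.34-fold, 1.34-fold and 1.18-fold higher. These genes encode complex I and III subunits. mt-Atp6 was lowest in NPMc+/Flt3-ITD, at 57.2 CPM, and stood at 143 in NPMc+. Ribosomal protein retrocopies were also highest in Mx and lowest in NPMc+/Flt3-ITD. Of 33 compared, 15 were at least 1.5-fold lower and 5 higher, and they summed to 7679.8 CPM for Mx, 5168 for Flt3-ITD, 4893 for NPMc+ and 2513 for NPMc+/Flt3-ITD. Rps27rt, for one, was detected in 94.1% of Mx and 66.5% of Flt3-ITD cells and in 57.7% in NPMc+ and 11.6% in NPMc+/Flt3-ITD. Of 84 ribosomal protein genes, 1 was higher and 2 lower. Retrocopies share most bases with their parent genes, and the way multi-mapping reads were handled is not given in the sources used here. The retrocopy values are thus uncertain, and no reading of them as expression is made. The same unknown handling may bear on the mitochondrially encoded genes. What set their split was not tested, and it is not read as a change in expression either.

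Both libraries held cells of both sexes, which were read apart as male cells (with a transcript of Uty, Kdm5d, Ddx3y or Eif2s3y but without Xist; 1218 in Mx and 987 in Flt3-ITD) and female cells (the reverse; 583 and 773). All 156 genes at least 2-fold higher were higher in both, and 119 were 2-fold higher in both; of the 114 lower genes 110 were lower in both and 66 were 2-fold lower in both. These genes had been chosen on sums that include the same cells, so a shared direction was likely beforehand and is no independent check. Cells of 1 library share its preparation, so the sexes are not replicates of the genotype. Kept cells with both Xist and a Y-linked transcript numbered 208 in Mx and 227 in Flt3-ITD, and those with neither 510 and 406. They were counted in neither sex. Whether doublets or free RNA gave the mixed cells was not tested, so the sex of single cells is uncertain. Some genes had larger ratios in male cells. Mmrn1, a stem cell and platelet adhesion protein, stood at 81.1 CPM in Mx and 10.5 in Flt3-ITD male cells and at 78.2 and 34.4 in female cells. Mx male and Mx female cells lay close for this gene, and Flt3-ITD male cells were the lowest of the 4 groups. Socs2 and Cd48 followed with the opposite sign, at 291 and 275 CPM in Flt3-ITD male cells and 172 and 126 in Flt3-ITD female cells, against 33.5 to 35.7 and 28.7 to 32.5 in Mx. Myl10 differed by sex already in Mx, at 68.4 CPM in male and 383 in female cells, so its ratio was 3.93-fold in male cells and 1.43-fold in female cells. These differences between the sexes were not tested.

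**Figure D5:**
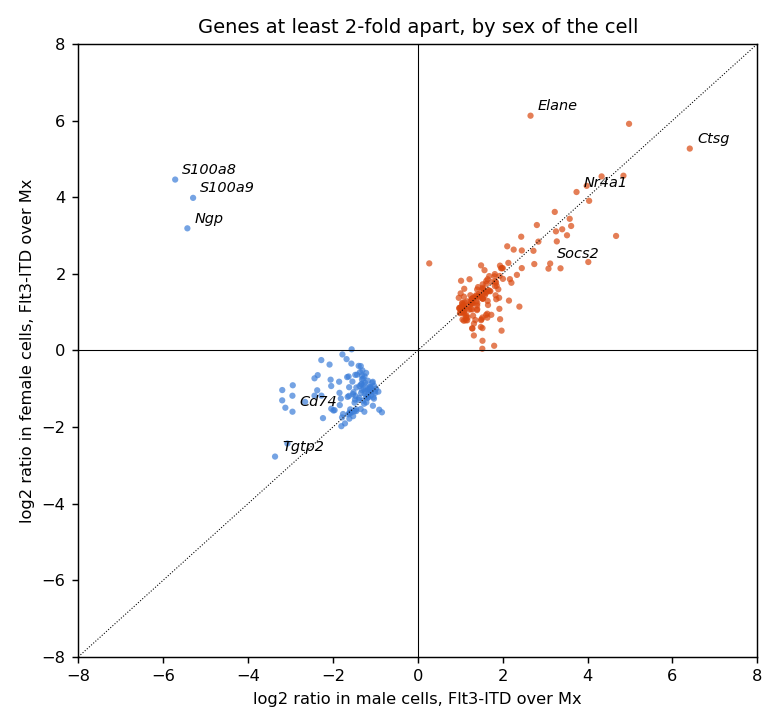
Log2 ratio of Flt3-ITD over Mx in male cells (x) and in female cells (y) for 269 of the genes at least 2-fold apart, with genes higher in Flt3-ITD in orange and lower ones in blue; the dotted line marks equal ratios. Most genes lie near the line in the same quadrant, and the neutrophil genes S100a8, S100a9 and Ngp lie far from it.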

How the data were processed

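The deposited tables hold UMI counts per gene and cell barcode, 1 table per library. Per the submitters' processing notes the tools were STARsolo and STAR 2.7.0c and the genome build mm10; cell calling, doublet removal and annotation are not given in the sources used here. No doublet caller was run; the 2.0% of cells with most UMIs and cells with both Xist and a Y-linked gene were left out as an alternative. Barcodes needed at least 1000 UMIs, 500 genes and at most 10.0% mitochondrial UMIs. The Mx and Flt3-ITD tables share 37 barcodes, 5 of them kept in both. Counts were summed per library and gene, and genes with at least 20 CPM in either library compared. Fold intervals are exact conditional binomial ones and share intervals Clopper-Pearson ones, at 95%. Cells were thinned without replacement with a fixed seed. With 1 library per genotype no p-value was computed. The scripts were tested on simulated data before use. Python 3.11.15, numpy 2.4.6, scipy 1.17.1, pandas 2.3.3 and, for TMM scaling as an alternative, R 4.3.3 with edgeR 4.0.16 were used.

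The members, the 46 gene lists and the 12 marker lists were chosen with earlier results of these data known. Genes could be named if they were among the 20 largest differences in share or, at 100.0 CPM or more, in ratio on either side, were among the 4 members furthest from or nearest to no difference in a list, or belonged to the 9 lists described in full: signalling (3 lists), immediate-early factors (2), cell cycle inhibitors, D cyclins with MYC, and stem cell surface and transcription factors. Prtn3, Lyz2, Mki67, Nkg7, H2-Ob, H3f3b, mt-Nd1, mt-Nd4 and mt-Rnr2 were named after their values were seen, as was the 5-base motif. Some members of the lists are not reported here by name. Of 26687 symbols, 95.2% were found in GENCODE M21, which gave gene coordinates; promoter windows came from RefSeq on GRCm38.p6. Other settings tried were the CPM floor, the thinning depth and seed, stricter cell filters, TMM, totals without mitochondrial and ribosomal genes, and leaving out classes of cells.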

Additional observations from a re-analysis of the deposited data

Results flagged for a closer look

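In 3 neutrophil genes the Flt3-ITD to Mx ratio had opposite directions in male and female cells. The log2 ratio in male minus that in female cells was -10.18 for S100a8, -9.28 for S100a9 and -8.62 for Ngp, and the difference was not tested. These transcripts lay in very few cells: of the S100a8 UMIs, 3 cells held 1484 of 1523 in Mx males and 634 of 658 in Flt3-ITD females. For Ngp, 3 cells held 467 of 480 UMIs in Mx males and 94 of 99 in Flt3-ITD females.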

How the results depend on the processing

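No paired analysis was possible because each genotype had 1 library. Of 459 named gene ratios under the alternatives, 5491 of 5497 values were not counted as reversed. For 46 list medians this held for 543 of 552 values, and for 52 differences in share for 468 of 468. A reversal was counted only where the reported ratio was at least 1.5-fold from Mx or the reported median was not near 0. Smaller ratios and medians that changed sign are thus not among the reversals. The counts of genes 2-fold higher and lower were 284 and 386 at a floor of 5 CPM and 96 and 52 at 50 CPM. Leaving out cells with 3 or more UMIs of any of 6 full marker lists of other lineages kept 127 Mx and 161 Flt3-ITD cells and gave 632 and 711, and 830 and 736 genes by share; with so few cells sampling of UMIs spreads the ratios. There Kit (log2 ratio 0.0828), Spred1 (0.21), Vldlr (0.0601), Rps4l (0.13) and mt-Co2 (0.0345) reversed, as did the medians for FLT3 pathway components (0.0214), stem cell surface genes (0.0239), cytokine receptors (0.21), Menin-MLL and Polycomb regulators (0.18) and mitochondrially encoded genes (0.49). Among medians not near 0, those of FLT3 pathway components (0.0229), D cyclins and MYC (0.0107) and FoxO genes (0.0264) crossed 0 under TMM. At a floor of 5 CPM that of Id and TGF-beta feedback (-0.0057) did. Medians nearer 0 that crossed it are not listed. Without cells holding Nr4a1 or Atf3 the ratio of Aqp1 (0.0183) reversed. Thinned to 2000 UMIs, 62 genes were detected in at least 10 points fewer cells. The cause was not tested. Genes with few UMIs and cells under 3000 UMIs limit what can be read.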
